A study of Ovis aries with 8 samples.

Results

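The 8 genes described here carry glucose into the cell and break it down to lactate. They are the transporters SLC2A1 and SLC2A3 and the enzymes HK1, PFKL, PFKM, ALDOA, GAPDH and LDHA. They were taken by name from an ovine Agilent array, through the gene name, an older name or the description of each probe that is no control. The array held 17 probes of the 8 genes, out of 15008 probes in all, and 685 distinct gene symbols could be read from its annotation. RNA of the carotid artery was hybridised in a single colour, 1 array for each of 8 sheep fetuses taken on day 140 of gestation. Mothers of the 4 hypoxia fetuses had lived at an altitude of 3801 m between days 30 and 135. Mothers of the 4 normoxia fetuses had stayed at 300 m. Both groups were fed alfalfa pellets, no drug or genotype is named for either, and the labels do not say where the ewes were between days 135 and 140. Whole artery was extracted, so fewer cells of a type and less RNA per cell cannot be told apart. The labels give only a number for each fetus, so the p-values below rest on the spread among these animals.

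Glucose enters cells down its gradient through the SLC2A transporters, is trapped by hexokinase and is committed to glycolysis by phosphofructokinase. Aldolase splits the resulting sugar, GAPDH carries out the first oxidation, and lactate dehydrogenase A regenerates the cofactor by turning pyruvate to lactate. In many cells low oxygen stabilises the transcription factor HIF-1, and SLC2A1, PFKL, ALDOA and LDHA are among its best known targets. Arterial smooth muscle makes lactate even where oxygen is plentiful.

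No probe of the 8 genes passed the test between hypoxia and normoxia. By their probes of highest mean signal, PFKL, ALDOA and LDHA had log2 fold changes of 0.61, 0.32 and 0.51, each with the hypoxia array higher in 3 of 4 equal replicate numbers. The share of all probes with 3 of 4 was not computed, and no label explains the numbers. The ALDOA value was 0.08 without hypoxia 4. The other enzymes had 0.99 (HK1), 0.16 (GAPDH) and −0.96 (PFKM), where the HK1 and PFKM probes were dim. SLC2A1 and SLC2A3, the transporters, had no common direction. For 10 of the 11 probes that were well above background on all 8 arrays, the highest value was on hypoxia 4.

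The 75th percentile of the processed signal ran from 97.9 to 1241 on the hypoxia arrays and from 125 to 1387 on the normoxia arrays, and 59.5% to 94.8% of probes were well above background. Values are log2 processed signals minus the 75th percentile of the same array, so that 0 is that percentile. Equal numbers are a hypoxia and a normoxia array with the same replicate number in their titles. The slides, read from the file headers, held hypoxia 1, 2 and 3 with normoxia 1 (slide 1), hypoxia 4 with normoxia 2 (slide 2), and normoxia 3 and 4 (slide 3), and scans coincided with slides. A first principal component with 69.8% of the variance separated arrays 1 and 3 of both groups from arrays 2 and 4 of both groups, so no correlation across the arrays is given. Of 10 listed smooth muscle markers, CNN1, MYLK and MYL6 were measured and were well above background on all 8 arrays. Their summed log2 level ran from 7.65 to 9.75 in hypoxia and from 8.70 to 10.2 in normoxia.

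Of the 17 probes, 16 passed the filter of at least 4 arrays well above background, and 11 probes of 6 genes (SLC2A1, SLC2A3, PFKL, ALDOA, GAPDH and LDHA) were well above background on all 8 arrays. Fitted with limma over all 11216 probes that passed, the adjusted p was 0.998 for each of the 16. An adjusted p under 0.05 was reached by 0 of 11216 probes (0%), and an unadjusted p under 0.05 by 413 (3.68%; 2.98% with hypoxia higher), where 1 of the 16 reached it, with hypoxia higher. A positive log2 fold change was found for 13 of the 16 probes, with a median of 0.27, where 48.3% of all probes were positive and the median was −0.02. The count depended on the processing: it was 9 of 16 with median scaling (35.0% of all probes), 8 of 16 with the normexp background (20.6% of all probes) and 11 of 16 without hypoxia 4 (58.9% of all probes). Probes of the same gene share the RNA of each array, and GAPDH had more probes than any other gene, so these 16 are not independent. With 1 probe per gene, 6 of 8 were positive, where 48.2% of all probes were. The number of arrays limited the precision: limma's 95% interval spanned −0.24 to 1.47 for PFKL and −4.82 to 2.89 for PFKM.

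**Figure D1:**
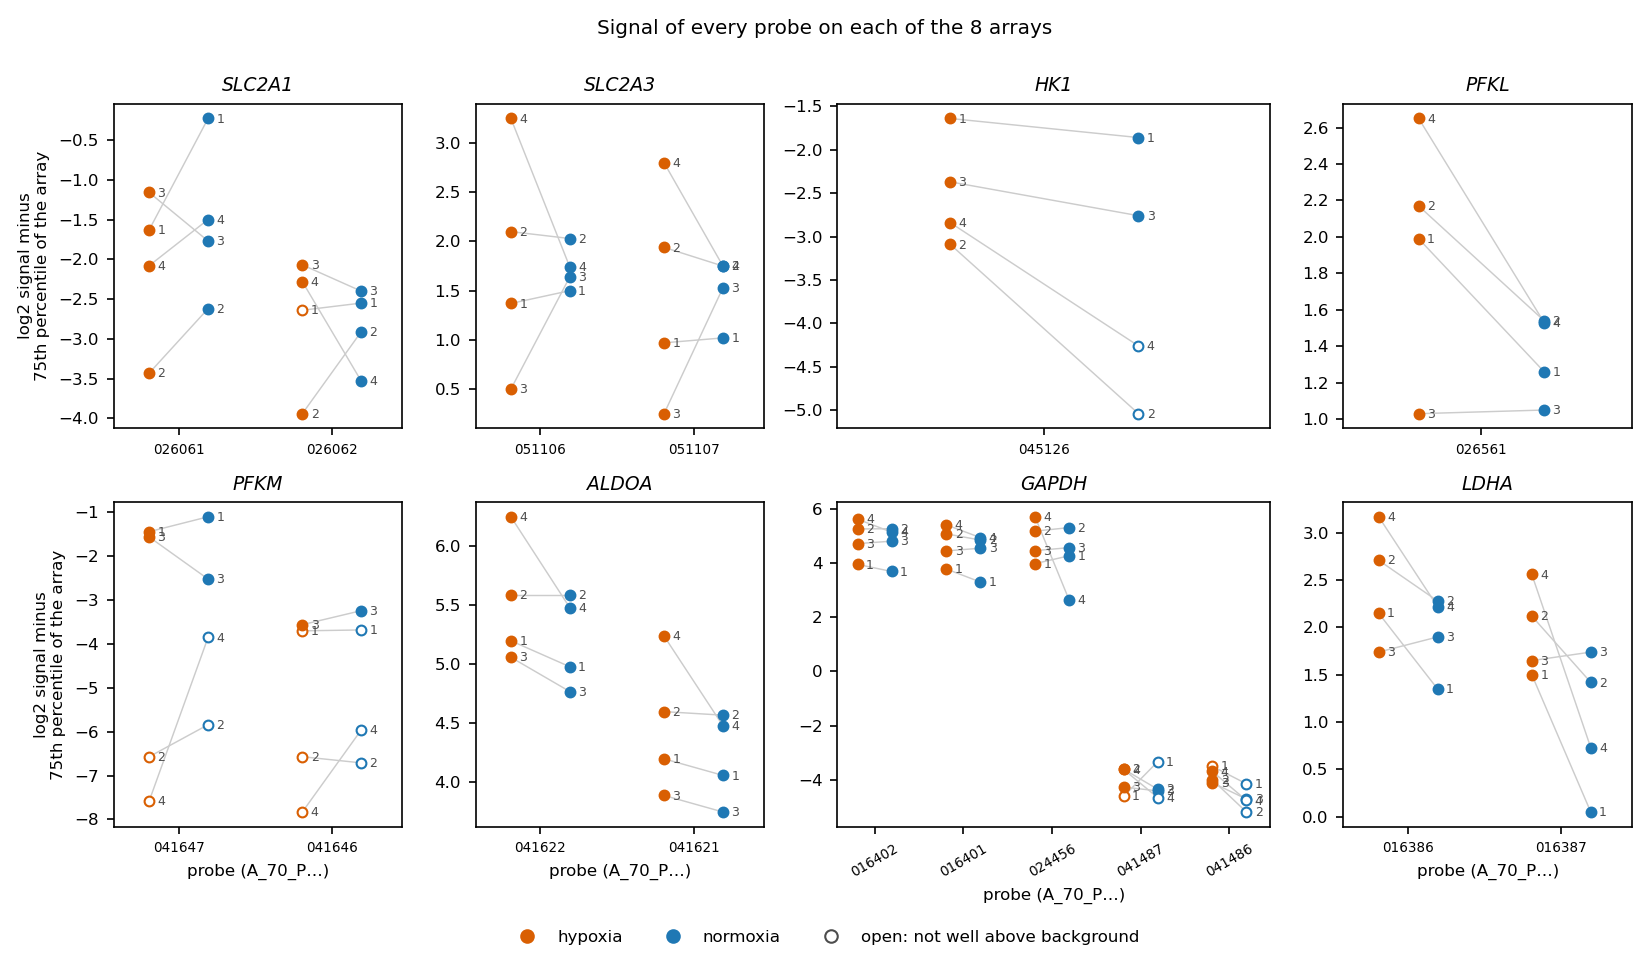
Log2 signal of all 17 probes relative to the 75th percentile of each array (y axes, which differ in scale), with hypoxia left of normoxia for each probe, digits for the replicate number and grey lines between equal numbers. Open circles are values not well above background. For PFKL the hypoxia arrays run from 1.03 to 2.65 and the normoxia arrays from 1.05 to 1.54.

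SLC2A1, the transporter that supplies basal glucose uptake in most cells, was measured by a pair of probes with the old name GLUT-1. Probe A_70_P026061 read −1.63, −3.43, −1.16 and −2.08 on hypoxia arrays 1 to 4, against −0.23, −2.62, −1.77 and −1.50 on normoxia arrays 1 to 4. The groups overlapped, and the hypoxia array was the lower one in 3 of 4 equal numbers. Its log2 fold change was −0.55 ± 0.64 (SE, n = 4 per group, limma unadjusted p = 0.413). Within slide 1 it was −1.85 and within slide 2 it was 0.53, so the sign differed between the slides. Probe A_70_P026062 read −2.64, −3.94, −2.07 and −2.28 in hypoxia, the first of these not well above background, against −2.55, −2.91, −2.40 and −3.53 in normoxia. Its log2 fold change was 0.11 ± 0.47, and it became negative with quantile normalization (−0.07), median scaling (−0.06) and cyclic loess (−0.08). The SLC2A1 probes therefore gave no shared direction: the SD over arrays of their within-array difference was 0.79, beside 0.96 and 0.64 for the probes themselves.

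SLC2A3 encodes a high-affinity transporter known from neurons and from the sheep placenta. Its probe A_70_P051106 (file name GLUT-3) read 1.37, 2.10, 0.50 and 3.25 on hypoxia arrays 1 to 4, against 1.50, 2.03, 1.64 and 1.74 on normoxia arrays 1 to 4. Both the lowest and the highest of the 8 values were in hypoxia, and the SD was 1.16 in hypoxia against 0.22 in normoxia; whether the spreads differ was not tested. The log2 fold change was 0.08 ± 0.55 (limma unadjusted p = 0.892), or −0.10 with median scaling. Leaving out hypoxia 4 gave −0.40 and leaving out hypoxia 3 gave 0.51. Probe A_70_P051107 followed it closely, with 0.97, 1.94, 0.25 and 2.80 in hypoxia and 1.02, 1.75, 1.53 and 1.75 in normoxia. For this probe the log2 fold change was −0.02 ± 0.54, which was 0.09 with normexp background, 0.07 with cyclic loess and −0.46 without hypoxia 4. The within-array difference of the SLC2A3 probes had an SD of only 0.17, so the wide spread in hypoxia was seen by both probes.

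HK1, the hexokinase found in most tissues, phosphorylates glucose on entry. Its only probe, A_70_P045126, read −1.64, −3.09, −2.37 and −2.84 in hypoxia, against −1.86, −5.04, −2.76 and −4.26 in normoxia. The hypoxia array was higher in 4 of 4 equal numbers, as in 13.8% of all probes, though the groups overlapped. This gave a log2 fold change of 0.99 ± 0.71 (limma unadjusted p = 0.199). The signal was well above background on 4 hypoxia and 2 normoxia arrays. The normoxia values on arrays 2 and 4, the lowest of the 8, were not. With the normexp background the log2 fold change turned to −0.54, and within slide 1 it was −0.51, against 2.20 within slide 2.

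PFKL encodes the liver-type subunit of phosphofructokinase, the enzyme that commits sugar to glycolysis. Probe A_70_P026561 (file name PFK-L) read 1.99, 2.17, 1.03 and 2.65 in hypoxia, against 1.26, 1.54, 1.05 and 1.53 in normoxia. On 3 hypoxia arrays the level was above every normoxia array, and on hypoxia 3 it was just below normoxia 3. The log2 fold change was 0.61 ± 0.37, a 1.53-fold difference (limma unadjusted p = 0.135). It was 0.47 within slide 1, 1.11 within slide 2 and 0.38 without hypoxia 4.

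PFKM encodes the muscle-type subunit, which predominates in skeletal muscle. It was identified through its locus number, and both of its probes were dim. Probe A_70_P041647 read −1.44, −6.57, −1.56 and −7.58 in hypoxia, against −1.10, −5.84, −2.52 and −3.85 in normoxia. Only arrays 1 and 3 of each group were well above background, and those are the high values. The SD over the 8 arrays was 2.55, larger than that of 97.3% of the probes tested, so the log2 fold change of −0.96 ± 1.67 (limma unadjusted p = 0.580) has almost no precision. Leaving out hypoxia 4 alone moved it to 0.13. Probe A_70_P041646 was well above background only on hypoxia 3 and normoxia 3 and was not tested. It read −3.70, −6.57, −3.56 and −7.83 in hypoxia, against −3.68, −6.71, −3.24 and −5.96 in normoxia.

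Skeletal muscle markers had the same arrays high. Of 16 listed skeletal muscle markers, MYH1, MYH2, TNNC2 and MB were measured, and their summed log2 level was 0.56, −1.93, −0.18 and −2.06 on hypoxia arrays 1 to 4, against 0.37, −1.91, −0.52 and −0.98 on normoxia arrays 1 to 4. The sum was thus highest on arrays 1 and 3, where PFKM was well above background. Genes of other tissues did likewise: the profiles closest to PFKM were those of CYP11B1, an adrenal steroid enzyme, and OXTR, the oxytocin receptor, each with a root mean square difference of 0.195 over the 8 arrays among 532 named genes. The lowest log2 value well above background was −3.70 on hypoxia 1 and −6.83 on hypoxia 4, so the dim end of the scale differed between arrays. The part of these in the PFKM values was not tested.

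ALDOA, the main aldolase of muscle and most other tissues, was bright on every array. Probe A_70_P041622 read 5.20, 5.59, 5.06 and 6.25 in hypoxia, against 4.98, 5.59, 4.77 and 5.48 in normoxia. Hypoxia 4 stood above all the others, and the remaining values were mixed between the groups. The log2 fold change was 0.32 ± 0.35 (limma unadjusted p = 0.390), or 0.08 without hypoxia 4. Probe A_70_P041621 read 4.20, 4.60, 3.89 and 5.24 in hypoxia, against 4.06, 4.57, 3.75 and 4.48 in normoxia. It was higher in hypoxia in 4 of 4 equal numbers, by 0.14, 0.03, 0.14 and 0.76. The log2 fold change of this probe was 0.27 ± 0.36, or 0.01 without hypoxia 4 and −0.01 with the normexp background. These ALDOA probes were the closest of any same-gene pair, with an SD of 0.07 for their within-array difference.

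GAPDH, the oxidising enzyme in the middle of glycolysis and a common normalisation control, had 5 probes from 3 sequence records. Which copy or strand each of them reads was not tested. Probe A_70_P016402 read 3.95, 5.26, 4.72 and 5.62 in hypoxia, against 3.69, 5.27, 4.81 and 5.14 in normoxia. Its log2 fold change was 0.16 ± 0.49 (limma unadjusted p = 0.751), or −0.02 with median scaling and −0.06 with the normexp background. Equal numbers lay close together here: the differences were 0.26, −0.01, −0.09 and 0.48. Probe A_70_P016401, of the same record, read 3.78, 5.08, 4.45 and 5.41 in hypoxia and 3.30, 4.85, 4.55 and 4.94 in normoxia, with a log2 fold change of 0.27 ± 0.49. Without normoxia 1 the values were −0.19 for A_70_P016402 and −0.10 for A_70_P016401.

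The third bright GAPDH probe differed from these on a single array. Probe A_70_P024456 read 3.98, 5.18, 4.46 and 5.71 in hypoxia, against 4.27, 5.31, 4.57 and 2.64 in normoxia. Its log2 fold change of 0.64 ± 0.62 was the largest of the bright GAPDH probes, although the hypoxia array was the higher one in only 1 of 4 equal numbers. Without normoxia 4 it was 0.12. The within-array difference between A_70_P016402 and A_70_P024456 was lowest, at −0.58, on normoxia 1, and highest, at 2.50, on normoxia 4.

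The remaining GAPDH probes were near background. Probe A_70_P041486 read −3.50, −4.00, −4.11 and −3.69 in hypoxia, against −4.15, −5.19, −4.71 and −4.76 in normoxia. It was the only probe of the 8 genes whose groups did not overlap, which 1.72% of all probes also showed with hypoxia higher, and the only one with an unadjusted p under 0.05. It had a log2 fold change of 0.88 ± 0.30 (limma unadjusted p = 0.018, adjusted p = 0.998). It was well above background on 3 hypoxia arrays and 1 normoxia array, and with the normexp background its log2 fold change was −0.45. Probe A_70_P041487, from the same record, read −4.61, −3.61, −4.27 and −3.62 in hypoxia and −3.33, −4.35, −4.41 and −4.66 in normoxia. Its log2 fold change was 0.16 ± 0.39, or −0.02 with median scaling, and it was well above background on 3 hypoxia and 2 normoxia arrays. Within slide 1 this probe gave −0.83, where A_70_P041486 gave 0.28.

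LDHA, which makes lactate from pyruvate, had the smallest unadjusted p among the bright probes. Probe A_70_P016387 read 1.50, 2.12, 1.65 and 2.56 on hypoxia arrays 1 to 4, against 0.05, 1.42, 1.74 and 0.73 on normoxia arrays 1 to 4. Only normoxia 3 reached the range of the hypoxia arrays. The log2 fold change was 0.98 ± 0.44, a 1.97-fold difference with a 95% interval of −0.03 to 1.98 (limma unadjusted p = 0.0555). Within slide 1 it was 1.71 and within slide 2 it was 1.14. Probe A_70_P016386 read 2.15, 2.71, 1.74 and 3.17 in hypoxia, against 1.35, 2.28, 1.90 and 2.22 in normoxia. Here normoxia 2 and 4 lay above hypoxia 1, and normoxia 2, 3 and 4 lay above hypoxia 3. The log2 fold change was 0.51 ± 0.38 (limma unadjusted p = 0.222). It was 0.85 within slide 1, 0.90 within slide 2 and 0.26 without hypoxia 4. The LDHA probes differed from each other most on normoxia 4, by 1.49, and least on hypoxia 3, by 0.09.

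**Figure D2:**
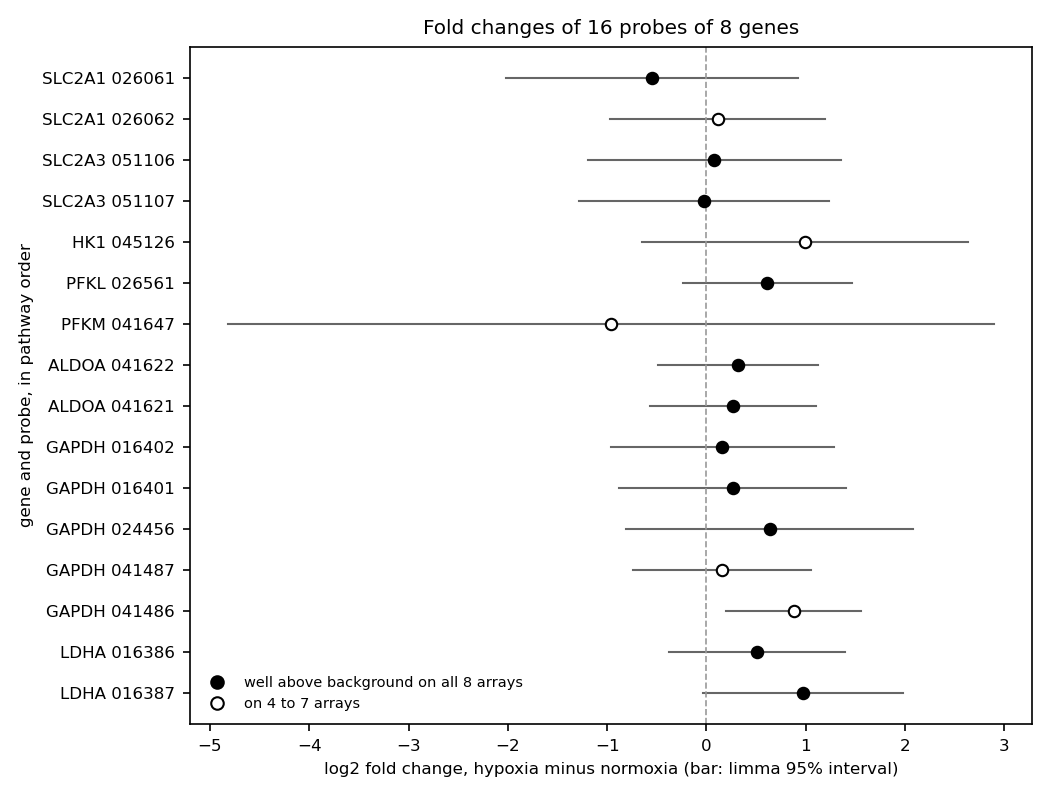
Log2 fold changes, hypoxia minus normoxia (x axis), of the 16 probes that passed the filter, listed from transporters to lactate dehydrogenase, with limma's 95% interval as bars. Filled points were well above background on all 8 arrays. Only the interval of the dim GAPDH probe A_70_P041486, 0.19 to 1.56, leaves out 0.

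The replicate numbers were taken to pair the arrays, because equal numbers deviated together in these same data. No label explains the numbers, and hypoxia 4 correlated at 0.434 with normoxia 4 but at 0.801 with normoxia 2. The p-values with this block are therefore descriptive. With the number as a block, an unadjusted p under 0.05 was reached by 3 of the 16 probes, all higher in hypoxia, where 11.9% of all probes reached it and 8.75% did so with hypoxia higher. The 3 were HK1, LDHA A_70_P016387 and the dim GAPDH probe A_70_P041486, with unadjusted limma p-values of 0.0353, 0.0396 and 0.0073. Their adjusted p-values were 0.389, 0.399 and 0.323, and no probe of the array passed. With the slide as a block the only such probe was LDHA A_70_P016387, with a log2 fold change of 1.48 ± 0.44 (limma unadjusted p = 0.0138, adjusted p = 0.952), against 1.77% of all probes.

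Hypoxia 4 stood out across the pathway. Among the 11 probes well above background on all arrays, it held the highest value for 10, while it did so for 9.43% of the 7445 probes of the array with the same property. The exception was SLC2A1, whose highest value was on normoxia 1. The median difference of the 11 probes between equal numbers was 0.22, 0.07, −0.09 and 0.96 for numbers 1 to 4, against 0.09, −0.07, −0.07 and −0.07 over the 7445 probes. Hypoxia was the higher array for 7, 7, 3 and 10 of the 11 probes, and for 44.6% to 56.1% of the 7445. For SLC2A3, PFKL, ALDOA and LDHA the highest of the 4 differences was that of number 4, between 0.76 and 1.83, whereas number 3 gave −1.28 to 0.28.

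Cell type markers also varied between arrays. On hypoxia 4 the summed log2 level of 5 measured endothelial markers out of 8 listed was −0.88, against 1.02 to 1.17 on the other hypoxia arrays and −1.40 to 0.68 on the normoxia arrays, with 2 of the 5 well above background. NOS3, the endothelial nitric oxide synthase, read −0.11, 0.54, −0.16 and −1.78 in hypoxia, against −0.70, −1.56, −1.24 and −2.50 in normoxia. Smooth muscle markers summed to 9.75 on hypoxia 4, the highest of the hypoxia arrays, but lower than the 10.2 on normoxia 4. The 4 measured adipocyte markers of 8 listed summed to −2.75 on hypoxia 4, the lowest of the 8 arrays, against −1.47 to 0.73 on the other hypoxia arrays and −1.23 to 0.81 on the normoxia arrays. Between the groups, positive log2 fold changes were found for 4 of the 5 endothelial markers (median 0.81) and 2 of 3 measured adventitial fibroblast markers (median 0.96). Negative ones were found for all 3 smooth muscle markers (median −0.60), all 5 measured leukocyte markers of 10 listed (median −0.70) and all 4 adipocyte markers (median −0.46). These counts use the brightest probe of each gene, and 48.3% of all probes were positive. Among the leukocyte markers CD4 had −0.02 ± 1.50 and CD14 −0.08 ± 0.48. Other leukocyte probes gave 0.53 (LYZ), 0.08 (CD14) and −0.36 (FCER1G). Other endothelial probes gave −0.59, 0.34 and 1.32 (KDR), 0.45 (TEK) and 2.42 (TIE1). COL3A1, a fibrillar collagen, had a log2 fold change of 1.80 ± 0.81 (limma without a block, unadjusted p = 0.0569, adjusted p = 0.998), and 0.53 and 0.54 by other probes. COL3A1 had the smallest p of these markers only with the replicate block, which is descriptive (limma unadjusted p = 0.000828, adjusted p = 0.317). Without a block the smallest was that of FCER1G, at −0.72 ± 0.27 (limma unadjusted p = 0.0297, adjusted p = 0.998). None of these markers passed the test. The part of these markers in the values of the 8 genes was not tested.

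**Figure D3:**
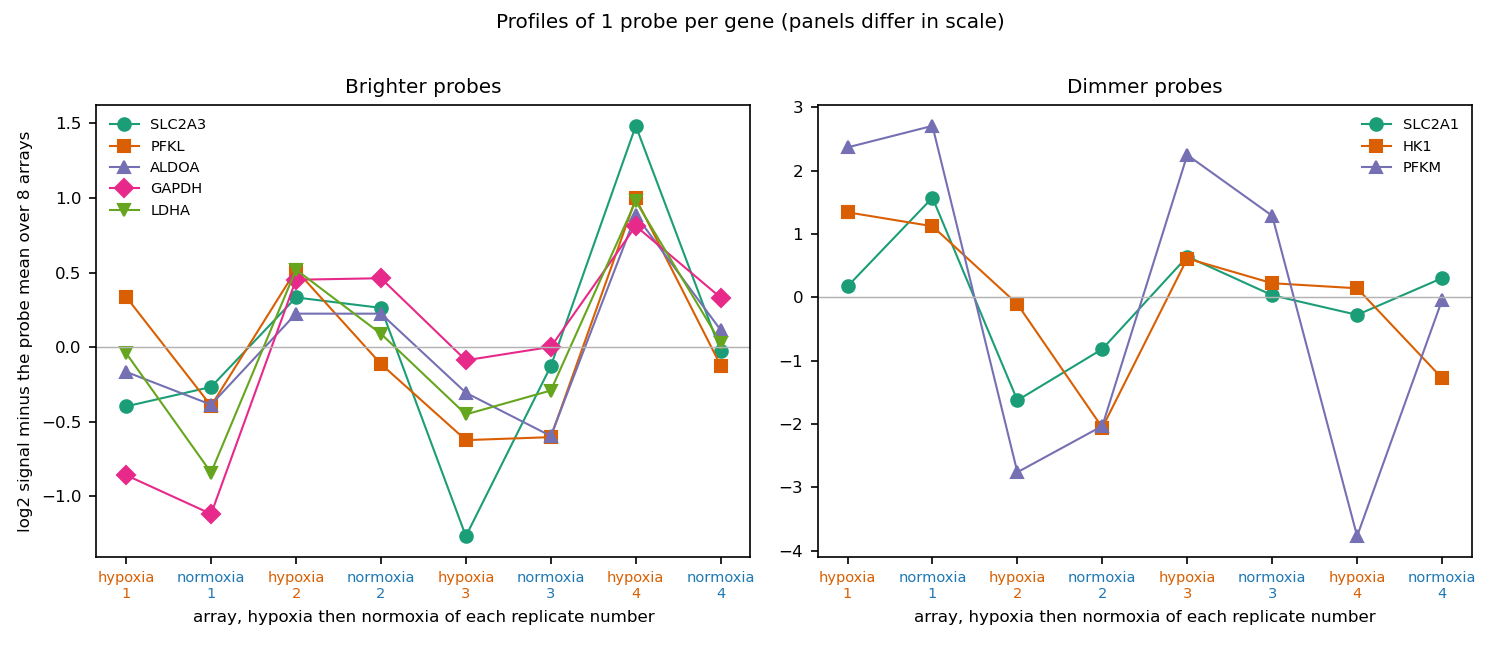
Log2 signal of 1 probe per gene minus its own mean over the 8 arrays (y axes, which differ in scale), with the hypoxia and then the normoxia array of each replicate number along the x axis. All 5 lines of the left panel peak on hypoxia 4, whereas PFKM in the right panel is high on arrays 1 and 3 of both groups and lowest on hypoxia 4.

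The profiles of the 8 genes fell into those that resembled each other and those that did not. Those alike, SLC2A3, PFKL, ALDOA, GAPDH and LDHA, had brighter probes than SLC2A1, HK1 and PFKM. The distances below keep the differences between arrays along the first principal component. The part of signal level in them was not tested. By the root mean square difference of centred log2 values over 8 arrays, LDHA lay nearest to ALDOA (0.24) and PFKL nearest to LDHA (0.26), followed by GAPDH with LDHA (0.39) and SLC2A3 with LDHA (0.43). HK1 and SLC2A1 were 1.01 apart, and PFKM was 1.78 from its nearest member, SLC2A1. Among 532 other named genes, the nearest to ALDOA were ARPC5L (0.20), a subunit of the actin-nucleating Arp2/3 complex, and ACTB (0.25), cytoplasmic actin. ARPC5L (0.32) and CAPNS1 (0.37), the small calpain subunit, lay nearest to LDHA, CAPNS1 (0.36) and ASIP (0.38) to PFKL, and ARPC5L and KIF5B (0.49 each), to SLC2A3, KIF5B being a kinesin motor. The nearest to GAPDH were BGN (0.25), a matrix proteoglycan, and SLC12A4 (0.31), a potassium-chloride cotransporter. SLC2A1 lay nearest to SLC2A4 (0.43), the insulin-regulated glucose transporter, and CD3E (0.48), a T cell receptor component. HK1 lay nearest to LEPR (0.38), the leptin receptor, and FGF18 (0.42).

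Isoforms and neighbouring steps were compared by the log2 ratio of a pair of genes within each array. This removes a scaling factor that both genes share. It does not remove differences between arrays at the dim end of the scale, so ratios of a dim to a bright probe keep them. PFKL over PFKM, for example, was 3.44, 8.74, 2.59 and 10.23 on hypoxia arrays 1 to 4. In all, 7 pairs were tested by an exact two-sided permutation test over 70 assignments of the arrays, whose smallest possible p is 0.0286. None passed after adjustment over the 7 pairs.

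The ratio of HK1 to SLC2A1, the first trapping step over the basal transporter, had the smallest p. It was −0.01, 0.35, −1.21 and −0.76 in hypoxia, against −1.63, −2.42, −0.99 and −2.76 in normoxia. Normoxia 3 was the only normoxia array within the range of the hypoxia arrays. The means were −0.41 ± 0.71 in hypoxia and −1.95 ± 0.79 in normoxia (SD, n = 4 each), a difference of 1.54 (exact permutation p = 0.0571, 0.4 after adjustment). It was 1.34 within slide 1 and 1.66 within slide 2, with the hypoxia array higher in 3 of 4 equal numbers. The lowest ratios, on normoxia 2 and 4, rest on HK1 values that were not well above background. With the other SLC2A1 probe it was 0.88, and with the normexp background there was no difference (−0.00).

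The transporters did not part clearly. The SLC2A1 to SLC2A3 ratio averaged −3.88 ± 1.87 in hypoxia and −3.26 ± 1.20 in normoxia, a difference of −0.63 (exact permutation p = 0.571, 0.657 adjusted), and 0.04 with the other SLC2A1 probe. The phosphofructokinase subunits, PFKL over PFKM, differed by 1.58, with means of 6.25 ± 3.80 in hypoxia and 4.67 ± 2.19 in normoxia (exact permutation p = 0.486). That value rests on the dim PFKM probe, which on hypoxia 2 read the low end of the array, and was 0.25 without hypoxia 4.

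Ratios of later steps varied less between arrays. The ALDOA to PFKL ratio averaged 3.56 ± 0.35 in hypoxia and 3.86 ± 0.16 in normoxia, a difference of −0.30 (exact permutation p = 0.171, 0.6 adjusted). Without hypoxia 3 it was −0.45, with an exact p of 0.0286, the smallest that 3 arrays against 4 can give. GAPDH over ALDOA differed by −0.16 (exact permutation p = 0.657), and LDHA over GAPDH by 0.35 (exact permutation p = 0.343). With LDHA probe A_70_P016387 the LDHA to GAPDH difference was 0.82 (exact permutation p = 0.0571, not adjusted). With LDHA probe A_70_P016386, which gave the 0.35, the difference turned to −0.13 with GAPDH probe A_70_P024456 and to −0.10 within slide 1. PFKL over HK1 differed by −0.38 (exact permutation p = 0.629), and by 1.00 with the normexp background.

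**Figure D4:**
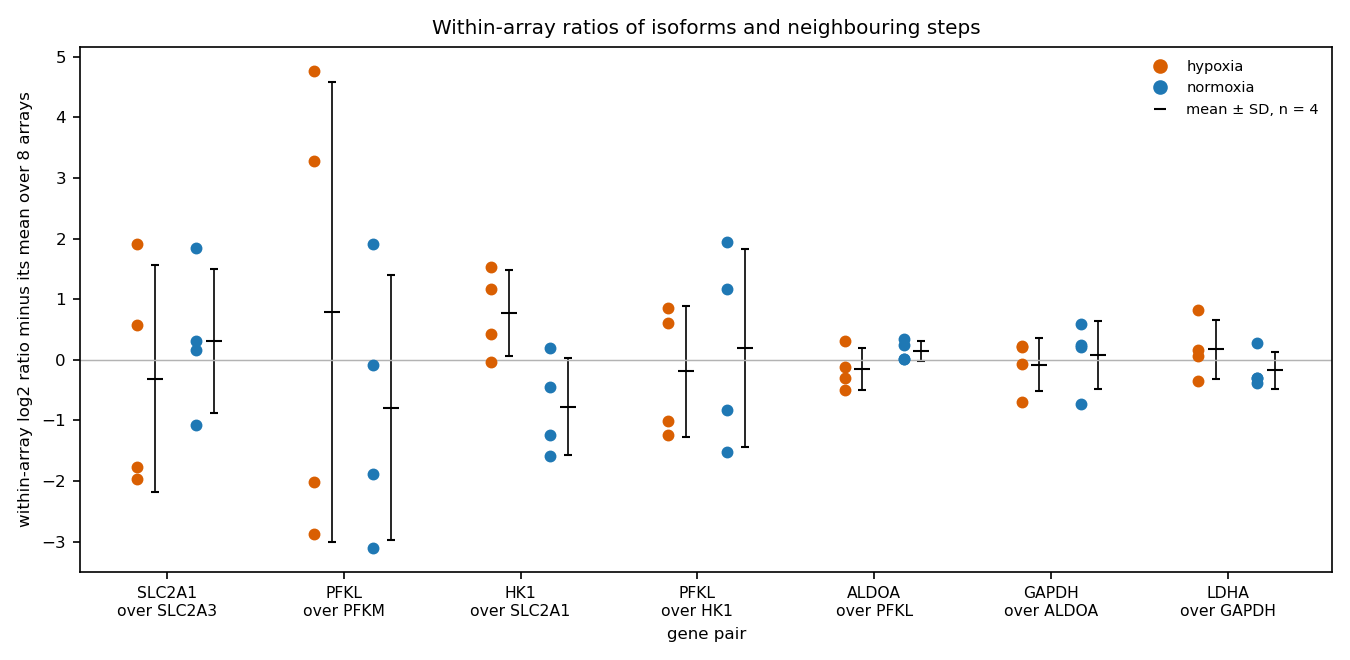
Within-array log2 ratios of 7 gene pairs minus their mean over the 8 arrays (y axis), with hypoxia left of normoxia and black bars for mean ± SD (n = 4). HK1 over SLC2A1 differs by 1.54, with HK1 not well above background on normoxia 2 and 4 and a difference of −0.00 with the normexp background, and PFKL over PFKM shows the widest spread.

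Few other genes of the pathway were measured, and none of them passed the test. Of 35 listed other genes of glucose uptake, glycolysis and lactate handling, 6 were measured, 0 passed the test, 1 had a positive and 5 a negative log2 fold change, and the median was −0.18. ENO3, the muscle enolase, was the positive one, at 0.44 ± 0.41 (limma unadjusted p = 0.311). It read −1.36, −1.25, −0.42 and −0.78 in hypoxia, against −2.13, −1.70, −0.52 and −1.22 in normoxia, and was higher in 4 of 4 equal numbers. SLC2A4 had a log2 fold change of −0.58 ± 0.66, with 0.29 for another probe, and SLC16A1, which exports lactate, −0.30 ± 0.37.

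Branches beside glycolysis (pyruvate entry, pentose phosphates, glycogen and gluconeogenesis) gave mostly negative values. Of 27 listed genes 7 were measured, 0 passed the test, 1 had a positive and 6 a negative log2 fold change, and the median was −0.34. PYGB and PYGL, which release glucose units from glycogen in brain and liver, were lower in hypoxia in 4 of 4 equal numbers, as were 10.4% of all probes. PYGB read −0.19, 1.08, 0.83 and 1.58 in hypoxia, against 0.85, 2.51, 1.61 and 1.62 in normoxia, a log2 fold change of −0.82 ± 0.48 (limma unadjusted p = 0.124). PYGL read 1.05, 2.13, 0.86 and 2.26 in hypoxia, against 1.86, 2.39, 2.09 and 2.61 in normoxia, a log2 fold change of −0.66 ± 0.40 (limma unadjusted p = 0.132). Another PYGL probe gave 0.38. PGD of the pentose phosphate pathway had −0.34 ± 0.28, and PCK1 of gluconeogenesis, well above background on 1 hypoxia and 3 normoxia arrays, −1.52 ± 1.50.

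Among 28 listed regulators of glucose uptake and of the hypoxia response, 9 were measured, 0 passed the test, 7 had a positive and 2 a negative log2 fold change, and the median was 0.26. CITED2, a HIF-1 target that limits HIF activity, read 0.26, −0.07, 0.68 and −0.74 in hypoxia, against −1.32, −0.98, −0.15 and −1.27 in normoxia. Its log2 fold change was 0.97 ± 0.40 (limma unadjusted p = 0.0435, adjusted p = 0.998). VEGFA, the angiogenic HIF target, had 0.88 ± 0.62 and was higher in 3 of 4 equal numbers. INSR, the insulin receptor, was lower in 4 of 4 and had −0.58 ± 0.38, though another probe gave 0.15. HIF1A itself had 0.73 ± 1.30 and was well above background on 3 hypoxia and 2 normoxia arrays. Housekeeping genes other than GAPDH had log2 fold changes of 0.09 ± 0.36 for ACTB, −0.08 ± 0.35 for B2M and −0.51 ± 0.39 for PPIA, by their brightest probes. ACTB's other probes ranged from −0.90 to 1.56.

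**Figure D5:**
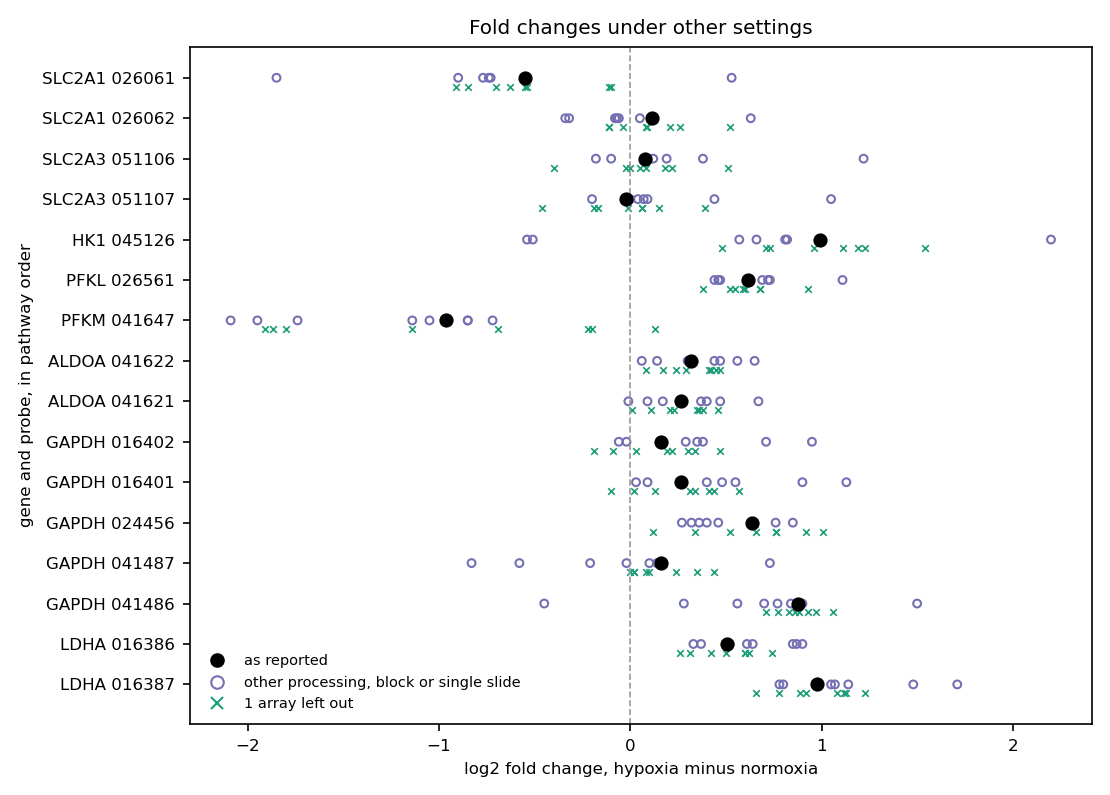
Log2 fold changes, hypoxia minus normoxia (x axis), of the 16 probes as reported (black), under other processing, blocks or single slides (open circles) and with 1 array left out (crosses). PFKL, LDHA and ALDOA A_70_P041622 stay above 0 in every case shown, with lowest values of 0.38 for PFKL, 0.26 and 0.66 for LDHA and 0.06 for ALDOA.

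Only 5 of the 16 probes had a positive log2 fold change under every alternative that was run, 20 or 21 for each of them. They were PFKL, ALDOA A_70_P041622, GAPDH A_70_P024456 and both LDHA probes. Their ranges were 0.38 to 1.11 for PFKL, 0.06 to 0.65 for ALDOA, 0.12 to 1.01 for GAPDH, 0.26 to 0.90 for LDHA A_70_P016386 and 0.66 to 1.71 for LDHA A_70_P016387. The lowest GAPDH value, 0.12, was that without normoxia 4. Other filters and the replicate block cannot change a log2 fold change, so not all of these alternatives could turn a sign. The share of all probes that stay positive throughout was not computed. None of these alternatives brought an adjusted p under 0.05.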

How the data were processed

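Total RNA of fetal carotid artery was labelled with Cy3 and hybridised to 8 arrays, 4 hypoxia and 4 normoxia, with the group taken from the labelled treatment of the mother. The titles give 110 days of hypoxia, and the treatment protocol gestation days 30 to 135. The deposited scanner output gives each spot's linear intensity, background-subtracted and detrended by Agilent Feature Extraction 9.5.3.1 (protocol GE1-v5_95_Feb07), per the file headers, with flags for spots well above background. The authors' deposited series table holds a ratio, from its values the intensity over each array's 75th percentile, with column medians of 0.326, 0.158, 0.308 and 0.141 for hypoxia 1 to 4 and 0.328, 0.132, 0.228 and 0.137 for normoxia 1 to 4. It served as an alternative.

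Of 15744 spots per array, 536 controls and the spots marked as outliers were left out, spots of a probe were averaged, and 72 probes with a missing array were dropped. A probe was kept if well above background on at least 4 of 8 arrays. Every kept probe was a feature. Groups were compared with limma 3.58.1 (lmFit, eBayes, R 4.3.3), Benjamini-Hochberg adjustment over 11216 probes and a threshold of 0.05. The fit was also run on simulated data with independent noise for each probe and array. Those data lack the component that the real arrays share, so they cannot show how the fit behaves on the real arrays. Gene pairs used each gene's kept probe with the highest mean. Names came from the files and from RefSeq genes of assembly ARS-UI_Ramb_v3.0, used for names only, for 1216 probes. All probes of the 8 genes were named, up to 4 genes per list with the smallest unadjusted p, and the 2 nearest profiles. A listed gene that this rule would name is not reported here. The members and lists were chosen with earlier results of these data known. Deviations of equally numbered arrays from their group means correlated at 0.820, 0.726, 0.584 and 0.434 over probes, so equal numbers were treated as pairs. This rests on the values, since no label explains the numbers, and normoxia 2 had its best correlation with hypoxia 4 (0.801), of its own slide. Alternatives were other background corrections, scalings, filters, blocks, the series table and leaving out each array.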

Additional observations from a re-analysis of the deposited data

How the results depend on the processing

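No alternative gave a probe with an adjusted p under 0.05 (0 in each, limma). Of 473 values recomputed, 411 kept their direction and side of the threshold and 53 changed sign. Other filters and the replicate block cannot change a log2 fold change, and no adjusted p crossed the threshold anywhere. The count of 411 is therefore no measure of how stable the values are. The median log2 fold change of all probes shifted to −0.31 with the normexp background and −0.20 with median scaling, and values under these settings are to be read against that shift. The number of arrays and the low signal over background of HK1, PFKM and the dim GAPDH probes limit the precision.

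Probes with an unadjusted p under 0.05 numbered 413 as reported, 24 with the normexp background, 138 with median scaling, 199 with the slide as a block, 1337 with the replicate block, and 173 to 616 with 1 array left out. Pairing by the replicate block changed no call, and no adjusted p of a member fell below 0.323.

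Signs that turned with the normexp background were those of SLC2A1 A_70_P026062 (−0.32), SLC2A3 A_70_P051107 (0.09), HK1 (−0.54), ALDOA A_70_P041621 (−0.01), GAPDH A_70_P016402 (−0.06), A_70_P041487 (−0.58) and A_70_P041486 (−0.45), and the ratios HK1 over SLC2A1 (−0.00) and PFKL over HK1 (1.00). With quantile normalization they were SLC2A1 A_70_P026062 (−0.07), SLC2A3 A_70_P051107 (0.00) and PFKL over HK1 (0.03). Median scaling turned SLC2A1 A_70_P026062 (−0.06), SLC2A3 A_70_P051106 (−0.10), GAPDH A_70_P016402 (−0.02) and A_70_P041487 (−0.02), and cyclic loess SLC2A1 A_70_P026062 (−0.08) and SLC2A3 A_70_P051107 (0.07). With the slide as a block the turned values were SLC2A3 A_70_P051107 (0.44), GAPDH A_70_P041487 (−0.21), PFKL over HK1 (0.15) and GAPDH over ALDOA (0.27). Within slide 1 they were SLC2A1 A_70_P026062 (−0.34), SLC2A3 A_70_P051106 (−0.18) and A_70_P051107 (0.04), HK1 (−0.51), GAPDH A_70_P041487 (−0.83), PFKL over HK1 (0.98), GAPDH over ALDOA (0.65) and LDHA over GAPDH (−0.10), and within slide 2 SLC2A1 A_70_P026061 (0.53) and SLC2A3 A_70_P051107 (1.05). Other probes turned SLC2A1 over SLC2A3 (0.04 with A_70_P026062), GAPDH over ALDOA (0.32 with A_70_P024456 and 0.56 with A_70_P041486) and LDHA over GAPDH (−0.13 with A_70_P024456 and −0.37 with A_70_P041486). The cause was not tested in any of these.

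With 1 array left out, log2 fold changes ranged from −0.91 to −0.10 and −0.11 to 0.52 for SLC2A1 A_70_P026061 and A_70_P026062, −0.40 to 0.51 and −0.46 to 0.39 for SLC2A3 A_70_P051106 and A_70_P051107, 0.48 to 1.54 for HK1, 0.38 to 0.93 for PFKL, −1.91 to 0.13 for PFKM and 0.08 to 0.47 and 0.01 to 0.46 for ALDOA A_70_P041622 and A_70_P041621. For GAPDH they ranged from −0.19 to 0.47 (A_70_P016402), −0.10 to 0.57 (A_70_P016401), 0.12 to 1.01 (A_70_P024456), 0.00 to 0.44 (A_70_P041487) and 0.71 to 1.06 (A_70_P041486), and for LDHA from 0.26 to 0.74 (A_70_P016386) and 0.66 to 1.23 (A_70_P016387). Ratio differences ranged from −1.37 to −0.08 for SLC2A1 over SLC2A3, 0.25 to 2.80 for PFKL over PFKM, 1.27 to 1.86 for HK1 over SLC2A1, −0.95 to 0.21 for PFKL over HK1, −0.45 to −0.18 for ALDOA over PFKL, −0.43 to 0.05 for GAPDH over ALDOA and 0.13 to 0.53 for LDHA over GAPDH.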
